A study of Ovis aries with 2 samples.

Results

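The genes described here were read in the muscle of one sheep breed and had no unique read in the other. They were chosen by their read numbers: at least 10 unique reads in one library and 0 in the other, with a gene identifier of a cattle or human protein and without the -D suffix that further entries of an identifier carry. Of the 14290 genes listed in either library, 76 met this rule, 36 read in DP and 40 read in SH. The libraries were made from biceps brachii of 11-month-old ewes, 1 library of Dorper sheep (DP), a meat breed of South African origin, and 1 of small-tailed Han sheep (SH), a Chinese breed with large litters. How many ewes each library holds is not given in the sources used here. With 1 library per breed, breed, animal and library cannot be told apart, and every difference below describes the libraries.

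The gene sets of a little-annotated genome are often built by aligning known proteins of related species to it, and each aligned locus then carries the identifier of the protein. Skeletal muscle puts much of its mRNA into few contractile and metabolic genes, so that genes of low expression, among them those of blood, vessel, nerve and connective tissue cells in the muscle, are sampled by few reads. A gene near this limit can be read in one library and missed in another. Whether this holds for the members was not tested. Across the 76 genes only the identifier is known: 0 identifiers of the tables were found in the sheep RefSeq gene table of ARS-UI_Ramb_v3.0, so no member is given a gene name, a function or a position, and the muscle label could not be checked against marker genes. No sequence of the members was in the files used here. All 14290 gene lengths are multiples of 3, and they are therefore coding lengths.

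The values that follow describe the members as the rule chose them: a gene with 0 reads in one library seldom has many in the other, so low read numbers and levels follow from the choice and are no finding. The same pattern, counted over all 14290 listed genes whatever their identifier, was found in 47 genes read in DP (0.329%) and in 43 genes read in SH (0.301%), and since the rule used these read numbers, the members' counts are given as a description only. Together, the 36 genes held 667 of the 16656621 unique reads on genes in DP, and the 40 genes held 848 of the 20329585 in SH. The reads per gene ranged from 10 to 78 with a median of 13.5 in DP, and from 10 to 61 with a median of 18.5 in SH. The RPKM, which divides the reads by gene length and library total, ranged from 0.224 to 4.67 with a median of 0.654 in DP, and from 0.103 to 4.83 with a median of 0.785 in SH. The median RPKM of all listed genes was 5.37 in DP and 5.11 in SH, above the highest member of each library. The RPKM was at least 1 in 12 of the 36 genes and in 16 of the 40 genes.

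**Figure D1:**
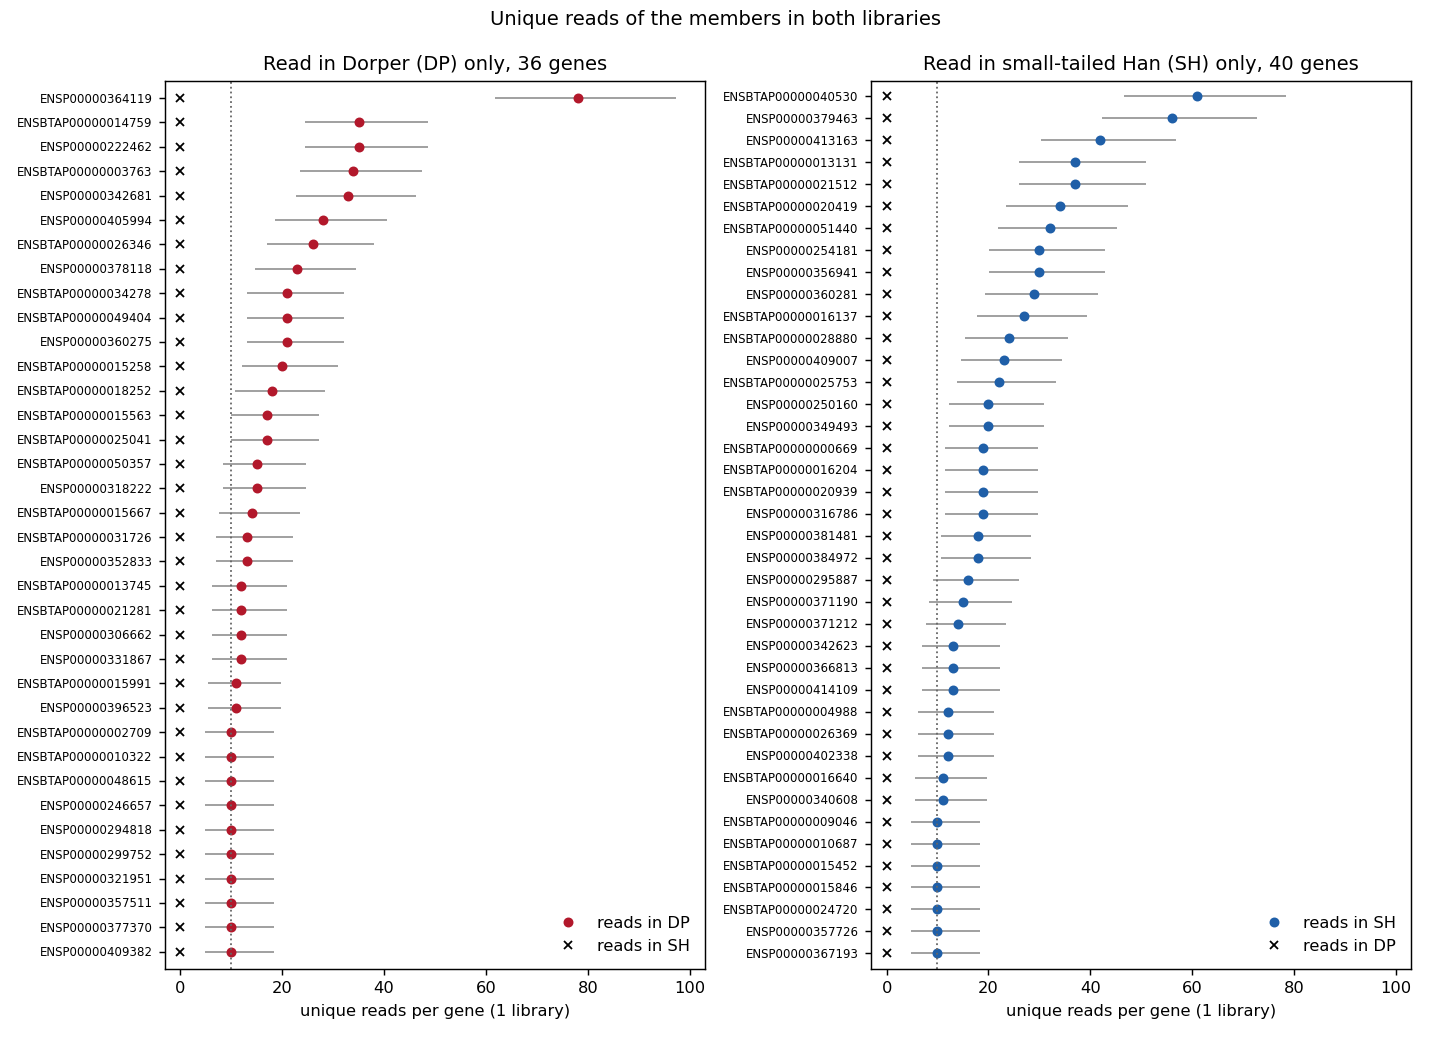
Unique reads per gene (x axis) of each of the 76 genes (y axis, identifiers), for the 36 genes read in DP (left) and the 40 read in SH (right). Filled circles are the reads in the library that read the gene, with exact 95% Poisson intervals as lines (counting error only), crosses are the reads in the other library, all at 0, and the dotted line is the minimum of 10 reads. ENSP00000364119 with 78 reads stands apart in DP, while in SH the reads decline from 61 without such a gap.

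The numbers of members were not ordered in the same way under every limit. At 10 reads, 36 genes were counted in DP and 40 in SH. SH had 1.22 times as many reads on genes, and with the minimum scaled to this depth the numbers were 36 in DP and 28 in SH. With gene predictions kept they were 45 in DP and 43 in SH. The identifiers of cattle and human proteins were about equally frequent, with 18 cattle and 18 human identifiers in DP and 19 cattle and 21 human identifiers in SH. Among all 12034 such genes without suffix, 51.2% carried a cattle identifier.

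Of the genes read in DP, ENSP00000364119 had the most reads. It had 78 reads in DP (95% interval 61.7 to 97.3) and 0 in SH, where 95.2 reads would correspond to the same share of the library. No fold is given for this or other members, since the read number and the 0 are the values the genes were selected on. No other member read in DP had more than 35 reads. ENSBTAP00000014759 and ENSP00000222462 followed with 35 reads each in DP and 0 in SH. ENSBTAP00000003763 had 34 reads in DP and 0 in SH, and ENSP00000342681 had 33 and 0. These genes differed in length, so that their order by RPKM was another one. ENSP00000364119 had an RPKM of 4.67 on 1002 bp, ENSBTAP00000003763 3.72 on 549 bp, ENSBTAP00000014759 2.87 on 732 bp, ENSP00000222462 1.98 on 1059 bp and ENSP00000342681 1.33 on 1491 bp.

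The next genes of DP lay between 20 and 30 reads. ENSP00000405994 had 28 reads in DP and 0 in SH, with an RPKM of 2.73 in DP. ENSBTAP00000026346 had 26 reads in DP and 0 in SH, with an RPKM of 1.67. ENSP00000378118 had 23 reads in DP and 0 in SH. On its 333 bp these reads gave an RPKM of 4.15, the second highest of the members read in DP. ENSBTAP00000034278 and ENSBTAP00000049404 had 21 reads each in DP and 0 in SH, but their RPKM of 0.847 and 0.574 were lower because the genes are longer (1488 and 2196 bp). ENSP00000360275 (1671 bp) was tied with them, with 21 reads in DP, 0 in SH and an RPKM of 0.754. The intervals of the genes with 20 to 35 reads overlap one another, so that their order is not set beyond counting error.

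Of the genes read in SH, ENSBTAP00000040530 was highest on both scales, with 0 reads in DP and 61 in SH (95% interval 46.7 to 78.4) and an RPKM of 4.83 on 621 bp. ENSP00000379463 had 0 reads in DP and 56 in SH. Its RPKM was only 1.06, since the reads were spread over a gene of 2589 bp. ENSP00000413163 had 0 reads in DP and 42 in SH, with an RPKM of 1.95. The intervals of the first and the third of these genes overlap.

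ENSBTAP00000013131 and ENSBTAP00000021512 both had 0 reads in DP and 37 in SH. They show how far read number and level can part: the RPKM was 1.23 for ENSBTAP00000013131 (1482 bp) and 0.278 for ENSBTAP00000021512, the longest of all members with 6558 bp. ENSBTAP00000020419 had 0 reads in DP and 34 in SH, which on 393 bp gave an RPKM of 4.26, the second highest of the members read in SH. ENSBTAP00000051440 had 0 and 32 reads, ENSP00000254181 and ENSP00000356941 each 0 and 30 reads, and ENSP00000360281 0 and 29 reads. Their RPKM in SH were 0.733, 0.594, 1.91 and 0.805.

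Most of the other members had few reads. In DP, 24 of the 36 genes had 10 to 19 reads, 11 had 20 to 49 and 1 had 50 or more. In SH, 24 of the 40 genes had 10 to 19 reads, 14 had 20 to 49 and 2 had 50 or more. At 10 reads the interval reaches from 4.80 to 18.4 reads, so these genes are known only roughly. What a count of 0 means as a level, taken here as up to 3 reads (a one-sided 95% limit, unlike the two-sided intervals), depends on the length of the gene. For the shortest member read in DP, ENSP00000357511 of 276 bp, with 10 reads in DP and an RPKM of 2.18, the floor of 3 reads in SH is worth an RPKM of 0.535. For the shortest member read in SH, ENSP00000357726 of 279 bp, with 10 reads in SH and an RPKM of 1.76, the floor in DP is worth an RPKM of 0.646.

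The share of genes that were at 0 in the other library fell with the number of reads. Among annotated genes, meaning those with a cattle or human identifier without suffix, 442 of the 1769 genes with 1 to 9 reads in DP were at 0 in SH. This share was 3.10% (24 of 775) at 10 to 19 reads, 0.828% (11 of 1328) at 20 to 49, 0.083% (1 of 1205) at 50 to 99 and 0% of the 6415 genes with 100 or more reads. In SH, 502 of the 1679 genes with 1 to 9 reads were at 0 in DP. The share was 3.34% (24 of 718), 1.16% (14 of 1206) and 0.164% (2 of 1217) in the next classes, and 0% of the 6736 genes with 100 or more reads. No annotated gene with 100 or more reads in one library was therefore at 0 in the other.

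**Figure D2:**
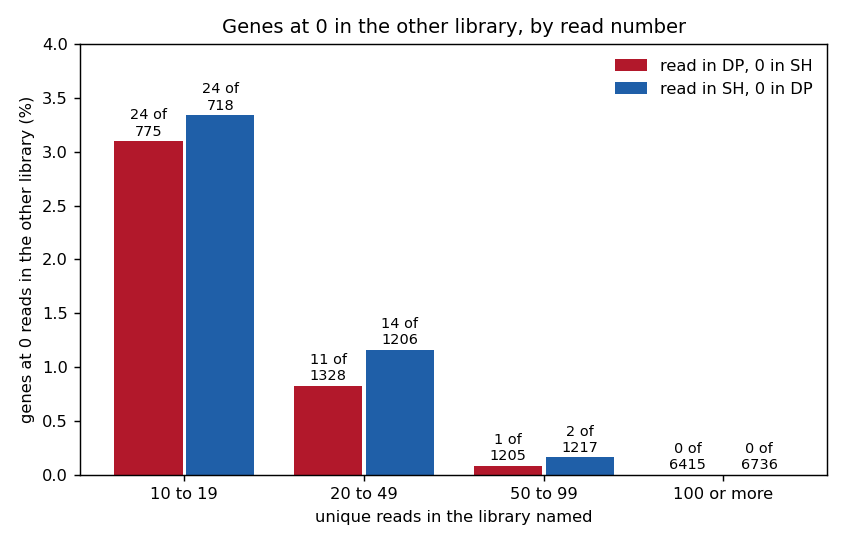
Percentage of annotated genes at 0 reads in the other library (y axis) by their unique reads in the library named (x axis), with the numbers of genes above the bars. The percentage is 3.10% in DP and 3.34% in SH at 10 to 19 reads, and no gene with 100 or more reads was at 0 in the other library.

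The genes just inside and just outside the rule differ in few reads. Exactly 10 reads were found on 10 of the members read in DP and on 7 of those read in SH. With 9 reads and 0 in the other library, 2 annotated genes were left out in DP, ENSBTAP00000024824 (3603 bp, RPKM 0.150, longer and lower than any member read in DP) and ENSP00000360252 (2124 bp, RPKM 0.254). In SH 5 such genes were left out, among them ENSBTAP00000004059 (1629 bp, RPKM 0.272) and ENSBTAP00000045730 (438 bp, RPKM 1.01). A further 12 annotated genes with at least 10 reads in DP were left out for 1 read in SH, and 10 with at least 10 reads in SH for 1 read in DP. The highest of the former was ENSBTAP00000031011, with 72 reads in DP and 1 in SH, and it was followed by ENSBTAP00000026154 with 43 and 1. In the other direction they were ENSBTAP00000049998, with 1 read in DP and 24 in SH, and ENSP00000369291, with 1 and 15. The reads of ENSBTAP00000031011 are close to those of the highest member, and only 1 read keeps it out.

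Low read numbers were even more often than odd in both libraries. The labels list a pair of read files for each library, and whether both mates of a fragment were counted as reads is not stated. In DP, 658 of all listed genes had 2 reads, whereas 511 had 1 and 253 had 3. In SH, 614 genes had 2 reads, 513 had 1 and 245 had 3. The minimum of the rule is itself an even number, so no share of even numbers is given for the members. Intervals and floors given above treat each read as independent and would be too narrow where both mates of a fragment were counted.

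**Figure D3:**
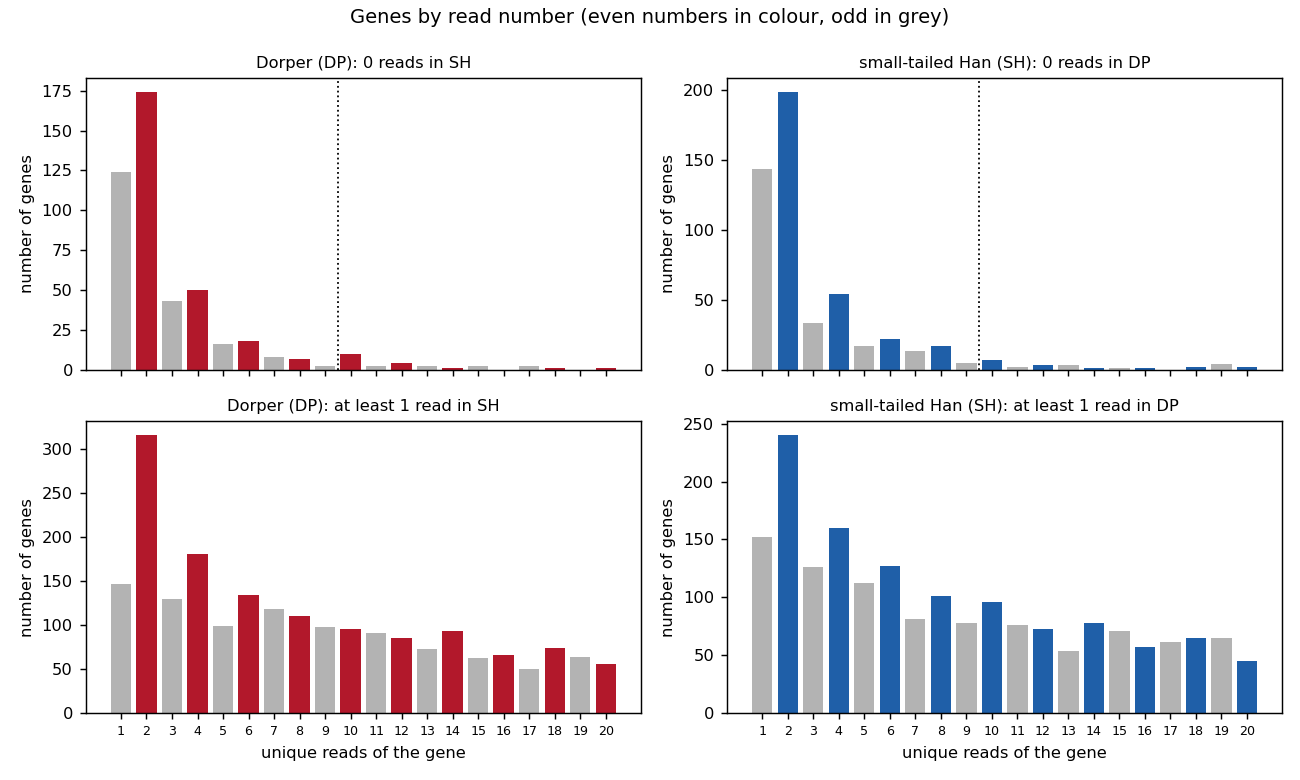
Number of annotated genes (y axis) with 1 to 20 unique reads (x axis) in DP (left) and SH (right), for genes at 0 in the other library (top) and genes with at least 1 read there (bottom), with even read numbers in colour and odd ones in grey. Genes at 0 in the other library with 2 reads (174 in DP and 198 in SH) outnumber those with 1 read (124 and 143), and those with 10 reads (10 and 7), the first inside the rule at the dotted line, outnumber those with 9 (2 and 5).

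The coverage, the percentage of the coding length covered by unique reads, shows how much of a member its reads reached. A gene with 1 read had 90 bp covered in both libraries, so reads were 90 bp long. From this length the covered length expected with evenly placed reads was computed for each gene. The ratio of covered to expected length is close to 1 where the reads are spread and small where they are stacked. Each read is taken as placed independently, which would not hold where both mates of a fragment were counted. In DP the coverage of the members ranged from 23.3% to 98.2% with a median of 51.2%, and in SH from 12.7% to 95.7% with a median of 62.4%. The median ratio of covered to expected length was 0.844 in DP and 0.873 in SH, against 0.892 and 0.899 in annotated genes with 10 to 99 reads that were read in both libraries. The 10th percentile of the ratio was 0.61 in DP and 0.491 in SH among the members, against 0.693 and 0.696 in the genes read in both. The 90th percentile was 1.02 and 0.993, against 0.987 and 0.989.

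In the class of 10 to 19 reads, the members had a lower median coverage than genes read in both libraries, but also fewer reads, with a median of 11.5 in DP and 12.5 in SH against 14 and 14. Their median coverage was 43.0% in DP and 45.8% in SH, against 57.2% and 56.9% in annotated genes of 10 to 19 reads read in both libraries. The members were also longer, with a median of 1302 bp in DP and 1203 bp in SH against 1113 and 1107 bp, and the ratio to the expected length, which takes reads and length into account, was 0.844 and 0.818 against 0.878 and 0.873. At 20 to 49 reads the median ratios were 0.861 in DP and 0.892 in SH, against 0.876 and 0.889 in genes read in both. The median coverage in this class was 60.5% in DP and 76.9% in SH, against 78.3% and 78.3%. The members again had fewer reads, with a median of 26 in DP and 29.5 in SH against 32 and 32. Below the 10th percentile of the genes read in both in the same class of reads were 5 of the 36 members in DP and 6 of the 40 in SH, and above the 90th percentile 1 and 3. These differences were not tested, since the members are not replicates.

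**Figure D4:**
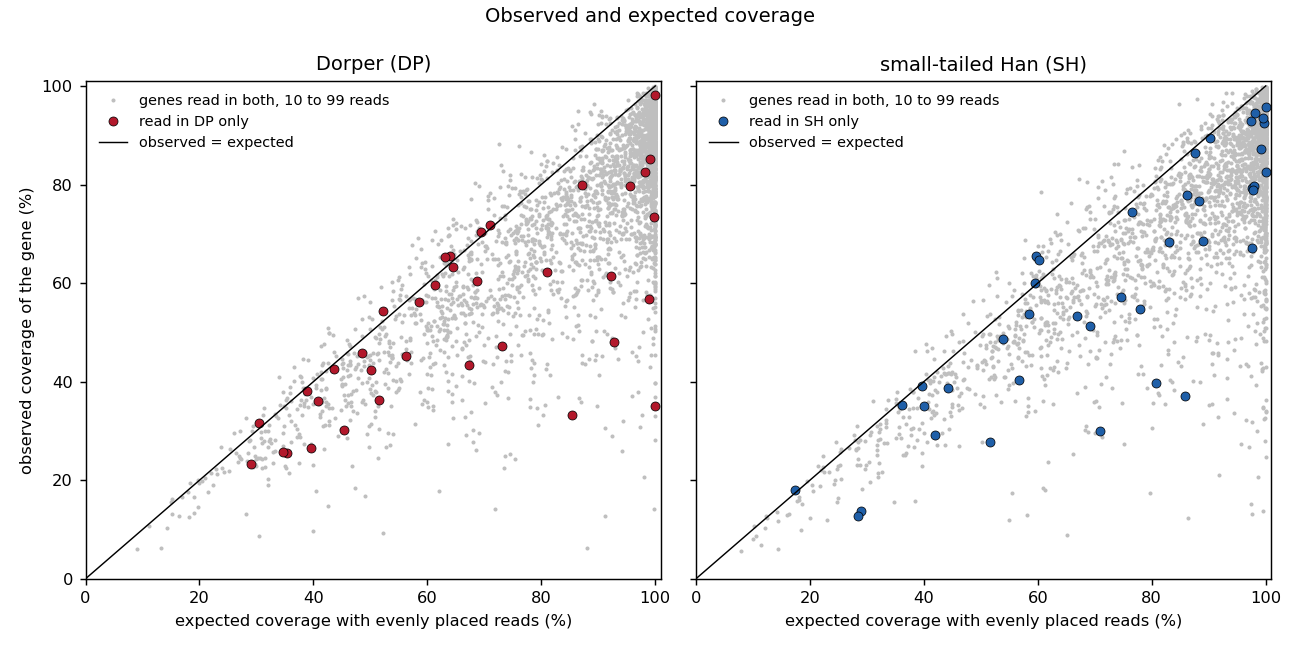
Observed coverage of the coding length (y axis, %) against the coverage expected with evenly placed reads of 90 bp (x axis, %) in DP (left) and SH (right). Coloured circles are the members, grey points are annotated genes with 10 to 99 reads that were read in both libraries, and the line marks equal values. Most members lie near the grey points, with ENSP00000364119 far below the line at 35.0% in DP.

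In a few members the reads covered far fewer bases than evenly placed reads would. The gene with the most reads in DP, ENSP00000364119, was the most extreme. Its 78 reads covered 351 of 1002 bp (35.0%), where 1001 bp would be expected, a ratio of 0.351, and the reads held 7020 bases, so that they were deeply stacked over these 351 bp. ENSP00000318222 had 15 reads in DP and 0 in SH, and these covered 250 of 750 bp, a ratio of 0.391. ENSBTAP00000026346 followed with 450 of 936 bp and a ratio of 0.518. Without ENSP00000364119, the depth of reads over the covered bases of the members read in DP reached at most 7.59, in ENSBTAP00000003763.

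In SH the ratio was below 0.5 in 5 members. It was lowest for ENSP00000402338, with 12 reads in SH on 277 of 921 bp (0.424), ENSBTAP00000015846, with 10 reads on 188 of 507 bp (0.432), and ENSBTAP00000010687, with 10 reads on 348 of 2739 bp (0.447). ENSBTAP00000010687 also had the lowest coverage of all members, 12.7%. It was followed by ENSBTAP00000016204, with 19 reads in SH on 13.7% of 5028 bp, and ENSBTAP00000009046, with 10 reads in SH on 18.1% of 4767 bp. In the latter the reads hardly overlapped, as 862 bp were covered where 827 bp would be expected. Low coverage alone therefore did not mean stacked reads. Where on the gene the covered bases lie is not given in the tables, and whether repeats, a shared domain or a part missing from the gene model lie there was not tested.

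At the other end, some members were covered nearly whole in one library and not at all in the other. ENSP00000378118 had 98.2% of its 333 bp covered in DP, and ENSBTAP00000014759 had 85.3% of its 732 bp. In SH, 95.7% of ENSBTAP00000020419 and 94.5% of ENSP00000250160 were covered, the latter by 20 reads on 492 bp. At least 90% was reached by 1 of the 36 members in DP and by 5 of the 40 in SH. ENSBTAP00000013131 combined a greater length with a high coverage, with 89.3% of 1482 bp covered by 37 reads, a ratio of 0.991. In DP, the longest member was ENSBTAP00000015563, where 17 reads covered 42.6% of 2715 bp, 1156 bp where 1184 bp would be expected. The 3 lowest coverages in DP, 23.3% in ENSBTAP00000010322, 25.5% in ENSP00000331867 and 25.8% in ENSP00000409382, were those of genes of 2676, 2526 and 2166 bp with 10, 12 and 10 reads.

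Another listed entry of the same identifier was found for 1 of the 76 members, ENSBTAP00000015846, beside 38 of the 12034 annotated genes (0.316%). ENSBTAP00000015846 (507 bp) had 0 reads in DP and 10 in SH, with an RPKM of 0.970 in SH. Its other entry, ENSBTAP00000015846-D2 (501 bp), had 15 reads in DP and 2 in SH, with an RPKM of 1.80 and 0.196, so that the entries went in opposite directions. Added together, the entries had 15 reads in DP and 12 in SH. Only reads with 1 position were counted, and the sum does not show the pattern by which the gene was selected. Whether reads of one locus were placed on the other entry was not tested. For the other 75 members no further entry with reads was listed, and reads that went to a copy outside the tables, or that were dropped for having several positions, are not shown by these files.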

How the data were processed

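Biceps brachii mRNA was sequenced as 1 library per breed. The authors removed reads with adaptors, with over 5% unknown bases or of low quality. The deposited count column holds the reads the authors aligned to 1 position of a gene, without normalization, and adds up to 16656621 reads in DP and 20329585 in SH. The deposited RPKM is that count scaled to gene length and to the column total. Recomputed RPKM differed by at most 7.03e-08 of the value. The deposited coverage is the percent of the gene length covered by those reads. The aligner, genome build and annotation of these tables are not given in the sources used here; the mapping described in the paper used another gene set.

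The tables were joined by identifier, with an absent gene set to 0 reads. The members and lists were chosen with earlier results of these data known. With 1 library per breed no test was made. Members are named where they have the most reads (10 in each direction, with ties by identifier; ENSP00000360275, tied with the tenth in DP, is added), the lowest or highest coverage, the lowest ratio of covered to expected length, the smallest or largest length, or a further listed entry; genes left out next to the rule's limit are named as such. The expected covered length was the gene length times the chance that a base is covered by evenly placed reads of 90 bp, with gene ends ignored. Intervals are exact 95% Poisson intervals, and these and the floor of 3 reads cover counting error only. The rule was run on simulated read numbers in which only genes given the pattern had 0 reads, so it could pick no other gene. For the expected covered length, simulated reads were compared with the form that keeps reads inside the gene. The main form, with gene ends ignored, was not tested in this way. Alternatives changed the minimum of reads, the reads allowed in the other library, the identifiers kept and the expected length. The tools were matplotlib 3.10.9, scipy 1.17.1, numpy 2.4.6 and pandas 2.3.3 under Python 3.11.15.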

Additional observations from a re-analysis of the deposited data

How the results depend on the processing

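The numbers of members, 36 in DP and 40 in SH, follow the minimum of reads by construction. They were 87 and 114 at 5 reads, 12 and 16 at 20 reads, and 18 and 20 with an RPKM of at least 1 in place of reads. With the minimum scaled to depth, 1 read allowed in the other library, suffixed identifiers kept or gene predictions kept, both stayed within 1.5 times. Their order turned with the minimum alone scaled to depth (36 in DP and 28 in SH) and with gene predictions kept (45 and 43). The median coverage, 51.2% in DP and 62.4% in SH, was 41.4% and 38.2% at 5 reads and 67.8% and 81.2% with an RPKM of at least 1, and 78.6% in SH at 20 reads. The median length, 1260 and 1203 bp, was 510 and 477 bp with an RPKM of at least 1, which favours short genes. Of the 46 alternative medians computed, 8 could not move, because the same genes or the same read length of 90 bp entered. Of the other 38, 31 lay within the exact 95% interval of the main median, among them every median ratio of covered to expected length. For the ratio this included reads kept inside the gene, an alternative chosen after the data were seen (0.875 in DP and 0.899 in SH). The interval treats the members as independent draws, although they were selected. The alternatives share genes with the members, so lying within the interval is partly built in and is no independent check. No paired analysis was possible because each breed has 1 library. Depth limits each value: at 10 reads the interval reaches from 4.80 to 18.4.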

Other observations

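Gene predictions without a cattle or human identifier showed the same pattern in 9 genes read in DP and 3 genes read in SH. These were 0.856% of the 1051 predictions with at least 10 reads in DP and 0.281% of the 1069 in SH, beside 0.370% and 0.405% of the annotated genes. In SH, GLEAN_10003998 had 0 reads in DP and 54 in SH, and these covered 29.9% of 1104 bp, a ratio of covered to expected length of 0.302. GLEAN_10010632 had 0 and 24 reads, on 22.3% of 1251 bp and with a ratio of 0.268. Both ratios are lower than that of any of the 76 genes with a cattle or human identifier, the lowest of which was 0.351. The third, GLEAN_10003382, had 0 and 12 reads and a ratio of 0.827. In DP the prediction with the most reads was GLEAN_10005115, with 28 reads in DP and 0 in SH on 60.0% of 1104 bp. The ratios of the 9 predictions in DP ranged from 0.334 to 0.978.

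Among identifiers with a suffix, 2 were read in DP and at 0 in SH, and 0 in the other direction. ENSP00000307093-D2 had 48 reads in DP and 0 in SH on 45.6% of 1884 bp, more reads than any member read in DP except ENSP00000364119, and no other entry of its identifier had reads. ENSP00000360002-D3 had 26 reads in DP and 0 in SH on 663 bp. The entry ENSP00000360002 of 669 bp had 310 reads in DP and 234 in SH, so the entries together had 336 and 234. The genes of this section were chosen after their values were seen.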
